A study of Homo sapiens with 6 samples.

Results

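Fibrillar collagens are the rod-like, triple-helical proteins that assemble into the banded fibrils of connective tissue. The genes described here are 10 members of this family, chosen by name: COL1A1, COL1A2, COL2A1, COL3A1, COL5A1, COL5A2, COL5A3, COL11A1, COL11A2 and COL27A1. All 10 had a row among the 31122 genes of the deposited count table. Of these, 5 had enough counts to be tested, along with 17420 genes in all, and the other 5 were below the filter on low counts. COL24A1, a further fibrillar collagen gene outside the chosen members, is given separately.

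Fibrillar procollagens are hydroxylated and folded in the endoplasmic reticulum, cut at both ends by secreted proteases, and then laid down as mixed fibrils. Type I collagen combines the COL1A1 and COL1A2 chains, type III is a homotrimer of COL3A1, and type V combines the COL5A1, COL5A2 and COL5A3 chains, set within fibrils of type I, whose width it limits. Types II and XI belong chiefly to cartilage. In breast tumours most fibrillar collagen is made by stromal fibroblasts, and carcinoma cells add chains of their own.

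The 6 libraries were poly(A) RNA from MDA-MB-468, an established triple-negative breast cancer cell line. The group with the genotype label WT held 3 parallel wells of parental cells from a 6-well plate. The group labelled GPR52 KO held 3 populations of the same line after CRISPR-Cas9 editing with sgRNA1, directed at GPR52, which encodes an orphan G protein-coupled receptor. The sources used here name no treatment and do not say whether these populations are clones or pools, and no cells edited with a control guide were analysed here, so the edit and the handling that went with it cannot be told apart. The populations titled 11, 12 and OG are called KO-labelled 1, 2 and 3.

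Library totals ranged from 25637794 to 31692454 counts. CPM is the count scaled to library size, here after TMM scaling, and 1 count was worth 0.0321 to 0.0397 CPM. GPR52 itself had 9, 1 and 0 counts in the parental-labelled libraries and 645, 694 and 724 in the KO-labelled ones. Its transcript was thus higher under the KO label, but a transcript level alone does not show whether the gene was disrupted. Whether the labels were exchanged or the edit raised the transcript was not tested. Every direction below is therefore that of libraries labelled KO against libraries labelled parental. SMAD4, which is deleted in MDA-MB-468, had 5 to 19 counts in all 6 libraries. Since the parental-labelled replicates were wells of a single culture plate, the p-values reflect only the variation among these libraries, part of which may be technical.

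The fibrillar collagens did not move in one direction. COL5A1 and COL1A1 were higher in KO-labelled libraries, COL5A2 and COL3A1 were lower, and COL11A2 did not pass the test. The 2 members called higher and 2 called lower stood against 21.0% of all tested genes called higher and 19.8% called lower (40.8% in either direction). All 5 tested members had groups that did not overlap in CPM, as did 54.4% of all tested genes. COL5A1 reached the count filter through the KO-labelled libraries only and COL3A1 through the parental-labelled ones only. The direction of each was therefore all but fixed once it was tested. In these bulk cultures a change in the number of cells that make a chain and a change in RNA per cell cannot be told apart.

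**Figure D1:**
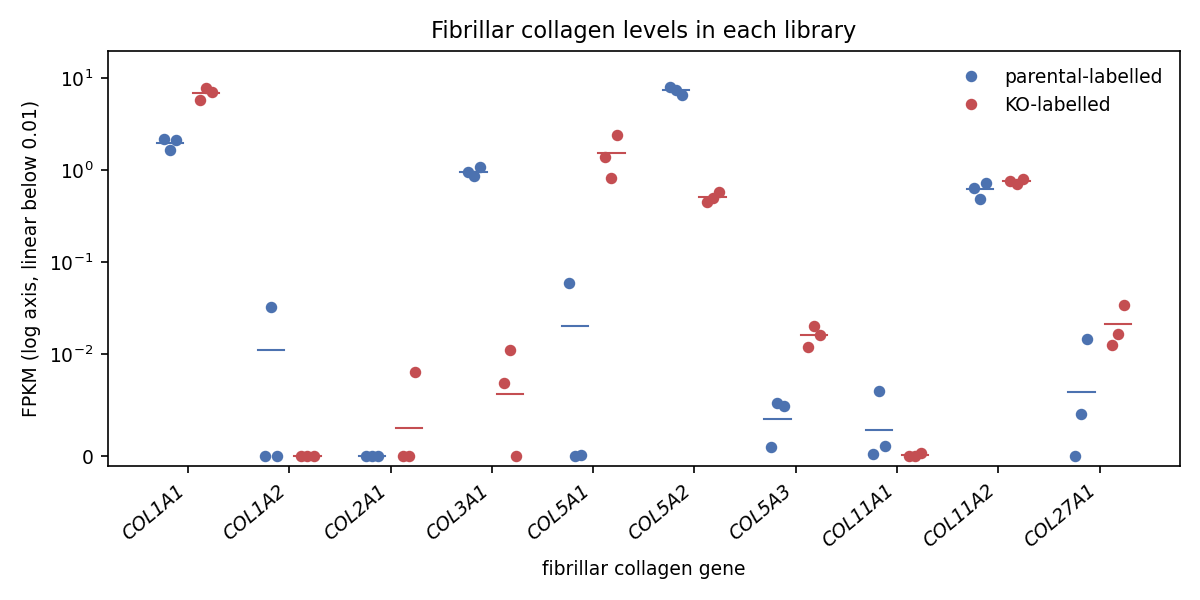
Each point is 1 library's deposited FPKM (fragments per kilobase of transcript, scaled to library size) for the gene on the x axis, on a log axis that is linear below 0.01, and each bar is the mean of 3 libraries. COL5A2 and COL3A1 are lower and COL1A1 and COL5A1 higher in the KO-labelled libraries, and the other 5 genes below the filter lie under 0.04 FPKM.

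Type V collagen changed in both of its main chains, in opposite directions. COL5A1, the chain present in nearly every type V trimer, had 2, 0 and 0 counts in parental-labelled libraries 1 to 3 and 331, 235 and 484 in KO-labelled libraries 1 to 3. The gene was at the edge of detection in every parental-labelled library and was readily counted in every KO-labelled one, with KO-labelled 3 at the top. Its level went from 0.0220 ± 0.0381 to 12.7 ± 4.49 CPM (SD, n = 3 each). Scaled to library size this was a 549-fold rise, with a 95% counting interval of 152 to 4537. The fitted log2 fold change was 8.85 (SE 0.58), and its adjusted p by edgeR's quasi-likelihood test was 2.2e-06. It ranked 6 from the top among the tested genes, and was 11.46 without parental-labelled 1, which held both parental counts. On the log2(FPKM + 1) scale, which compresses low levels, it was 1.27.

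COL5A2, the partner chain of COL5A1, was the fibrillar collagen with the highest parental level. Its counts were 1864, 1581 and 1719 in the parental-labelled libraries against 104, 119 and 125 in the KO-labelled ones, so the groups lay far apart and each was tight. The level fell from 59.9 ± 4.04 to 4.20 ± 0.272 CPM (SD, n = 3 each), 14.2-fold lower. The log2 fold change was -3.83 (SE 0.10) with an adjusted p of 1.1e-06 in the edgeR test, and ranked 78 from the bottom. It lay between -3.90 and -3.79 with any library left out, and was -2.47 on the log2(FPKM + 1) scale. COL5A2 remained detected in all KO-labelled libraries, unlike COL3A1.

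COL5A3, the third type V chain, had 0, 1 and 1 counts in the parental-labelled libraries and 2, 6 and 3 in the KO-labelled ones. The ratio of 5.75 had a 95% counting interval of 1.25 to 53.4, and the gene was below the filter. Without the filter its adjusted p was 0.0779 in the edgeR test.

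The proportion of type V chains per transcript length thus turned over. The FPKM ratio of COL5A1 to COL5A2 was 3.07, 1.66 and 4.10 in KO-labelled libraries 1 to 3, a mean of 2.94 ± 1.23 (SD, n = 3). In the parental-labelled libraries it was 0.00751, 5.1e-06 and 1.9e-05. Parental-labelled 2 and 3 had 0 counts of COL5A1, so their ratios rest on no counted read. COL5A1 was above COL5A2 in each KO-labelled library and far below it in each parental-labelled one. No pair of chains fixed for a ratio test (COL5A1 with COL5A2 or COL5A3, COL1A1 with COL1A2, COL11A1 with COL11A2) had both above 0.1 FPKM in every library, so none was tested. The 2 counts of COL5A1 in parental-labelled 1 came with 0.0601 FPKM, or 0.0300 per count against 0.00348 to 0.00494 per count in the KO-labelled libraries, so the parental ratio rests on an uncertain estimate.

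The sequence just before the start of COL5A1 is shown because this gene went from the edge of detection to a counted transcript, beside that of COL5A3, its relative that stayed below the filter. Both are the 250 bases before the outermost start in the RefSeq promoter table (GRCh38.p14), whose entries matched 5 of the 10 members. Capitals mark matches on either strand to GGGCGG, the GC box bound by SP1-type factors, or to CCAAT, the box bound by NF-Y, with no overlap between the 2 motifs. The COL5A1 window is chr9:134641553-134641802 on the + strand and the COL5A3 window is chr19:10010505-10010754 on the - strand.
COL5A1: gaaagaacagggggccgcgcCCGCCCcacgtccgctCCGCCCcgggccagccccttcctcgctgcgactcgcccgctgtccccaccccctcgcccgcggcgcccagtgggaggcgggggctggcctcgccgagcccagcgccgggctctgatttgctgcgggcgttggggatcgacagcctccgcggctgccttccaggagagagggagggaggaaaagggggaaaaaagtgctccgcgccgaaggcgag
COL5A3: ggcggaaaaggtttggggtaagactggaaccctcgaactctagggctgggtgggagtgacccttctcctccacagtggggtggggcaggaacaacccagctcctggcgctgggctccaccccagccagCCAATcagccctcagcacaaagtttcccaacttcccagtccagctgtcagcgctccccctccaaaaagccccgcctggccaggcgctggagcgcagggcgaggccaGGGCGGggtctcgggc
COL5A1 held 2 GC boxes, which begin 230 and 214 bases before the start, and no CCAAT box. COL5A3 held 1 GC box, beginning 16 bases before the start, and 1 CCAAT box, beginning 122 bases before it. The other members with a window did not sort by level. COL27A1, also below the filter, held 2 GC boxes and no CCAAT box, as COL5A1 did. COL11A1, below the filter too, held 3 GC boxes and 1 CCAAT box, and COL11A2, which was tested, held neither motif. Of 34943 such windows, 42.5% hold a GC box and 32% a CCAAT box. Neither TATAAA, present in 10.8% of windows, nor TGANTCA, present in 6.59%, was in the COL5A1 or the COL5A3 sequence. The COL5A1 window was 74% G or C with 29 CpG pairs, the COL5A3 window 66% with 10, and the medians over all windows were 58% and 11. At least as many CpG pairs as in COL5A1 were found in 14.1% of windows. These are descriptions of the reference sequence, and the cells' own DNA was not measured.

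COL3A1, the only chain of type III collagen, was nearly lost. Its counts were 193, 151 and 221 in the parental-labelled libraries and 1, 2 and 0 in the KO-labelled ones. Every parental-labelled library held a clear signal and no KO-labelled library exceeded 2 counts. The level went from 6.49 ± 0.563 to 0.0361 ± 0.0354 CPM (SD, n = 3 each), a ratio of 180.2 with a 95% counting interval of 61.3 to 876. The fitted log2 fold change was -7.32 (SE 0.35) with an adjusted p of 1.3e-06 in the edgeR test, 14 from the bottom in rank. It was -8.16 without KO-labelled 2, which held 2 of the 3 counts, and -0.97 on the log2(FPKM + 1) scale.

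COL1A1, which encodes the main chain of type I collagen, rose in every KO-labelled library. Its counts were 221, 162 and 255 against 620, 720 and 773, and the lowest KO-labelled library lay above the highest parental-labelled one. The level went from 7.31 ± 0.881 to 25.5 ± 2.12 CPM (SD, n = 3 each), 3.47-fold higher. The log2 fold change was 1.80 (SE 0.12), with an adjusted p of 3.2e-05 in the edgeR test, and stayed between 1.71 and 1.88 with any library left out. COL1A1 ranked 529 from the top, so its rise was far from the largest among all genes.

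COL1A2, the partner of COL1A1 in most type I collagen, had 1 count in parental-labelled 2 and 0 in the other 5 libraries. The KO-labelled group had 0 of its counts, which allows up to 0.0362 CPM, against 25.5 CPM for COL1A1. As background, COL1A1 chains can form trimers without COL1A2. No protein was measured here, and no trimer can be inferred from these RNA levels.

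The type XI and type II chains split by level. COL11A2 had 95, 78 and 94 counts in the parental-labelled libraries and 95, 137 and 112 in the KO-labelled ones. In CPM these were 3.13, 3.10 and 3.02 against 3.58, 4.84 and 3.999, so the KO-labelled values were all higher but more spread, and in FPKM the groups overlapped. The log2 fold change of 0.43 (SE 0.16) did not pass the edgeR test, with an adjusted p of 0.0631, but it passed without KO-labelled 1 at 0.52 (adjusted p = 0.0361) and without KO-labelled 3 at 0.45 (adjusted p = 0.0471). It passed as well with library totals in place of TMM scaling, at 0.47 (edgeR adjusted p = 0.0442). COL11A1 had 1 count, in parental-labelled 2. COL2A1, the cartilage collagen, had 1 count, in KO-labelled 3.

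COL27A1, a fibrillar collagen best known from developing cartilage, had 0, 0 and 1 counts in the parental-labelled libraries and 3, 3 and 8 in the KO-labelled ones. The ratio of 14.6 had a 95% counting interval of 2.23 to 619. The gene was below the filter on low counts. Without that filter its adjusted p was 0.0361 in the edgeR test, a value that rests on 1 parental and 14 KO-labelled counts. COL24A1, the remaining fibrillar collagen gene, went the other way, from 85, 50 and 72 counts to 39, 35 and 11. Its log2 fold change of -1.21 (SE 0.36) had an edgeR adjusted p of 0.0289, a call lost when any 1 of the parental-labelled libraries or KO-labelled 2 was left out (adjusted p 0.0505 to 0.102) and on the FPKM scale.

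Compared per transcript length, the order of the chains differed between the groups. In the parental-labelled libraries COL5A2 led at 7.40 ± 0.699 FPKM, followed by COL1A1 at 1.99 ± 0.297 and then COL11A2 at 0.621 ± 0.121 (SD, n = 3). COL3A1 lay between these last genes, at 0.873 to 1.07 FPKM. In the KO-labelled libraries COL1A1 led at 6.96 ± 1.02 FPKM, followed by COL5A1 at 1.54 ± 0.795, COL11A2 at 0.761 ± 0.0566 and COL5A2 at 0.511 ± 0.0645 (SD, n = 3). The ranges of neighbours in these orders did not overlap, although the lowest COL5A1 value, 0.818, was just above the highest for COL11A2, 0.813. The 5 members below the filter did not separate cleanly from each other and had group means of at most 0.0212 FPKM. For scale, the median tested gene had 8.07 FPKM among parental-labelled libraries and 8.31 among KO-labelled ones. Among all tested genes COL5A2 went from percentile 48.1 of the FPKM level to 10.1, COL1A1 from 26.6 to 46.1, COL3A1 from 18.7 to 0.202 and COL5A1 from 0.484 to 22.3.

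The summed FPKM of the 10 members overlapped between the groups, while its make-up differed. The sum was 11.8, 10.6 and 10.6 FPKM in the parental-labelled libraries and 8.54, 9.95 and 11.0 in the KO-labelled ones, and the highest KO-labelled value lay within the parental range. In CPM, which does not allow for transcript length, the sum was 73.7 to 78.5 against 43.2 to 53.8, with no overlap. COL5A2 held 67.1 ± 4.34% of the parental sum and 5.21 ± 0.217% of the KO sum (SD, n = 3 each). COL1A1 went from 18.1 ± 2.39% to 71.0 ± 7.43%, COL5A1 from 0.170 ± 0.292% to 15.5 ± 6.85%, and COL3A1 from 8.82 ± 1.13% to 0.0648 ± 0.0577% (SD, n = 3 each). COL11A2 stayed a minor part, at 5.64 ± 1.14% and 7.82 ± 1.04% (SD, n = 3 each).

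**Figure D2:**
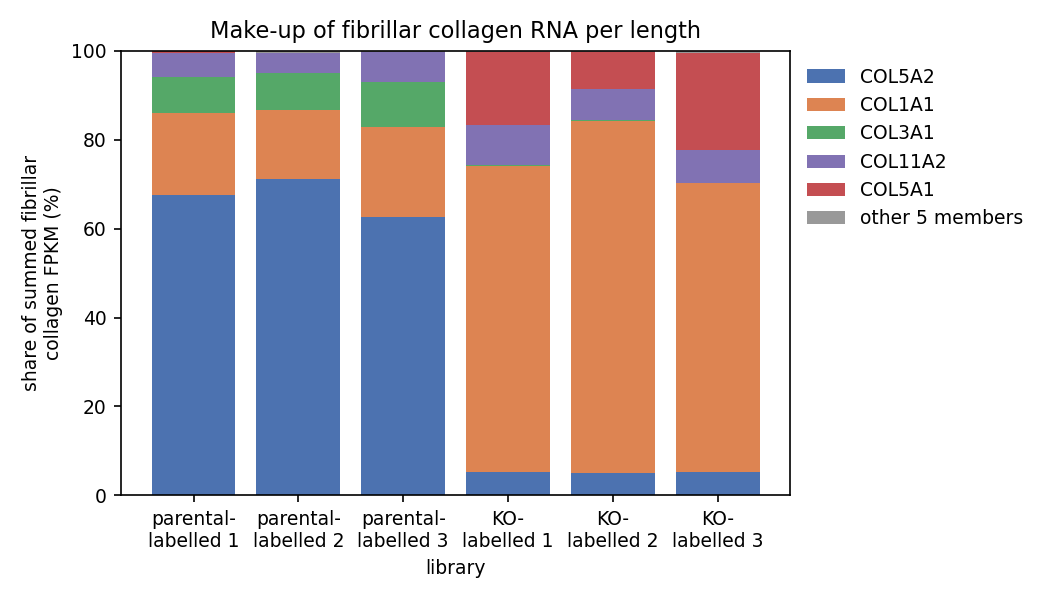
Stacked bars give each gene's share of the summed fibrillar collagen FPKM, in percent, in each of the 6 libraries. COL5A2 takes 62.5 to 71.2% of each parental-labelled bar and COL1A1 64.9 to 79.3% of each KO-labelled bar.

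Among the 4 members with over 100 counts in the KO-labelled group, COL5A1 varied the most between the edited populations. Its coefficient of variation of CPM was 35.4% over the KO-labelled libraries, against 13.1% for the median tested gene there. COL5A2 and COL1A1 were tight, at 6.49% and 8.32%, while COL24A1, with fewer counts, varied by 54.8%. COL11A2 varied by 1.87% over the parental-labelled libraries and 15.6% over the KO-labelled ones, where the medians of tested genes were 6.01% and 13.1%. Within the KO-labelled group, KO-labelled 3 had the highest counts of COL1A1 (773), COL5A1 (484), COL5A2 (125) and COL27A1 (8), and the lowest of COL24A1 (11).

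Genes that modify, fold and export procollagen were called in both directions, in shares near the background. Of 22 listed genes 20 were tested, and 5 were higher, 5 lower and 10 not called, where 21.0% of all tested genes were higher and 19.8% lower, with a median log2 fold change of -0.0243 (0.00893 over all tested genes). P4HB, the disulphide isomerase that is the shared subunit of prolyl 4-hydroxylase, rose from 435 ± 16.7 to 636 ± 7.67 CPM. LEPREL4, a partner in prolyl and lysyl modification, rose from 5.93 ± 0.574 to 11.4 ± 0.794 CPM. CRTAP, the cofactor of prolyl 3-hydroxylase, fell from 88 ± 1.59 to 51.1 ± 4.74 CPM, and the lysyl hydroxylase PLOD2 from 139.9 ± 3.39 to 95.6 ± 6.54 CPM (SD, n = 3 each). The log2 fold changes of P4HB, LEPREL4, CRTAP and PLOD2 were 0.55 (SE 0.06), 0.95 (SE 0.12), -0.78 (SE 0.08) and -0.55 (SE 0.07), with edgeR adjusted p from 2.5e-04 to 6.7e-04. SERPINH1, the collagen-specific chaperone, was at 0.23 (SE 0.22) and not called, with 57.6, 59.97 and 108.9 CPM in the KO-labelled libraries against 63.2 to 65.4 CPM.

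Genes that act on the propeptides gave 3 higher, 1 lower and 1 not called among 5 tested of 11 listed. Of all tested genes 21.0% were called higher and 19.8% lower (40.8% in either direction). The list's median log2 fold change was 1.18, and both that median and the 3 higher genes include ADAMTS14. FURIN, which activates the proteases of this step, rose from 27.2 ± 2.94 to 61.4 ± 6.51 CPM. PCOLCE, which enhances cleavage of the C-terminal propeptide, rose from 1.14 ± 0.209 to 3.70 ± 0.524 CPM. ADAMTS14, a protease for N-terminal propeptides, had 2, 0 and 0 counts against 18, 21 and 28, a ratio of 35.0 with a 95% counting interval of 9.32 to 295. It passed the filter through the KO-labelled libraries only, so its place among the higher genes was all but fixed. BMP1, the protease for C-terminal propeptides, fell from 52.8 ± 0.861 to 43.6 ± 1.93 CPM (SD, n = 3 each), a call lost without any 1 of the parental-labelled libraries (adjusted p 0.0527 to 0.0613) and on the FPKM scale. The log2 fold changes of FURIN, PCOLCE, ADAMTS14 and BMP1 were 1.18 (SE 0.11), 1.68 (SE 0.20), 4.88 (SE 0.68) and -0.28 (SE 0.07), with edgeR adjusted p from 1.5e-04 to 0.0151. ADAMTS14 was at 7.50 without parental-labelled 1.

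Among collagens and other proteins that sit on the surface of fibrils, 7 of 24 listed genes were tested, of which 2 were higher, 2 lower and 3 not called (40.8% of all tested genes called, median log2 fold change of the list 0.0310). COL12A1, a fibril-associated collagen, fell from 25.2 ± 1.94 to 2.11 ± 1.17 CPM, and COL21A1, of the same class, from 1.48 ± 0.263 to 0.579 ± 0.157 CPM. COL16A1 had 1.45, 1.99 and 1.29 CPM in the parental-labelled libraries and 3.01, 3.57 and 12.2 CPM in the KO-labelled ones, so KO-labelled 3 stood well above the rest. TNXB, a tenascin that binds fibrils, rose from 0.506 ± 0.0943 to 1.69 ± 0.539 CPM (SD, n = 3 each). The log2 fold changes of COL12A1, COL21A1, COL16A1 and TNXB were -3.58 (SE 0.31), -1.34 (SE 0.27), 2.01 (SE 0.58) and 1.73 (SE 0.33), with edgeR adjusted p from 9.0e-05 to 0.0255. COL16A1 was at 1.08 without KO-labelled 3 and lost its call without any 1 of the parental-labelled libraries (edgeR adjusted p 0.0545 to 0.0980). COL16A1, COL21A1 and TNXB lost theirs on the FPKM scale. Fibronectin (FN1) and thrombospondin-1 (THBS1) were at -0.10 (SE 0.27) and 0.03 (SE 0.30) and not called. KO-labelled 3 was the highest library in both, with THBS1 at 113, 112 and 258 CPM and FN1 at 27.9, 45.4 and 69.2 CPM in KO-labelled 1 to 3, against 146 to 166 CPM and 49.3 to 52.1 CPM in the parental-labelled libraries.

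Of the collagen receptors 6 of 11 listed genes were tested, with 1 higher, 2 lower and 3 not called, beside 40.8% called among all tested genes (median log2 fold change of the list -0.34). ITGB1, the beta chain shared by the collagen-binding integrins, fell from 276 ± 7.95 to 212 ± 24.1 CPM, and the receptor kinase DDR1 from 756 ± 32.3 to 628 ± 73.4 CPM. MRC2, an endocytic receptor for collagen, rose from 2.26 ± 0.512 to 4.53 ± 1.26 CPM (SD, n = 3 each). The log2 fold changes of ITGB1, DDR1 and MRC2 were -0.38 (SE 0.09), -0.27 (SE 0.09) and 1.01 (SE 0.26), with edgeR adjusted p from 0.00987 to 0.0467. With parental-labelled 1, parental-labelled 3 or KO-labelled 2 left out only 1 receptor gene was called, MRC2 losing its call each time (edgeR adjusted p 0.0525 to 0.0661). The ITGB1 and DDR1 calls were lost on the FPKM scale, and that of MRC2 there only with log2(FPKM + 1) and no filter. The DDR1 call was lost with every library left out in turn except KO-labelled 3, and also with library totals in place of TMM scaling and with a filter of 1 CPM in 3 libraries.

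Of transcription factors known to act on collagen genes 16 of 20 were tested, and 4 were higher, 2 lower and 10 not called, close to the 40.8% called among all tested genes (median log2 fold change of the list 0.14). RUNX2, a regulator of skeletal collagen genes, rose from 5.10 ± 0.293 to 14.5 ± 2.18 CPM. SOX9, the activator of cartilage collagens, went from 106.3 ± 3.98 to 127 ± 3.40 CPM, NFYB, a subunit of the CCAAT-binding complex, from 70.1 ± 2.06 to 47 ± 7.07 CPM, and TFAP2A from 172 ± 6.60 to 131 ± 5.80 CPM (SD, n = 3 each). The other subunits of that complex did not fall with NFYB. NFYC was called higher, from 154 ± 6.28 to 178 ± 6.14 CPM (SD, n = 3 each, edgeR adjusted p = 0.0315), and NFYA was not called. The log2 fold changes of RUNX2, SOX9, NFYB and TFAP2A were 1.51 (SE 0.14), 0.26 (SE 0.06), -0.58 (SE 0.11) and -0.39 (SE 0.07), with edgeR adjusted p from 1.3e-04 to 0.0140. Without parental-labelled 1 or 2 the list had 3 called genes in place of 6, SOX9 losing its call in both cases (adjusted p 0.0875 and 0.0557), and without KO-labelled 3 it had 9. TFAP2A lost its call on the FPKM scale.

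**Figure D3:**
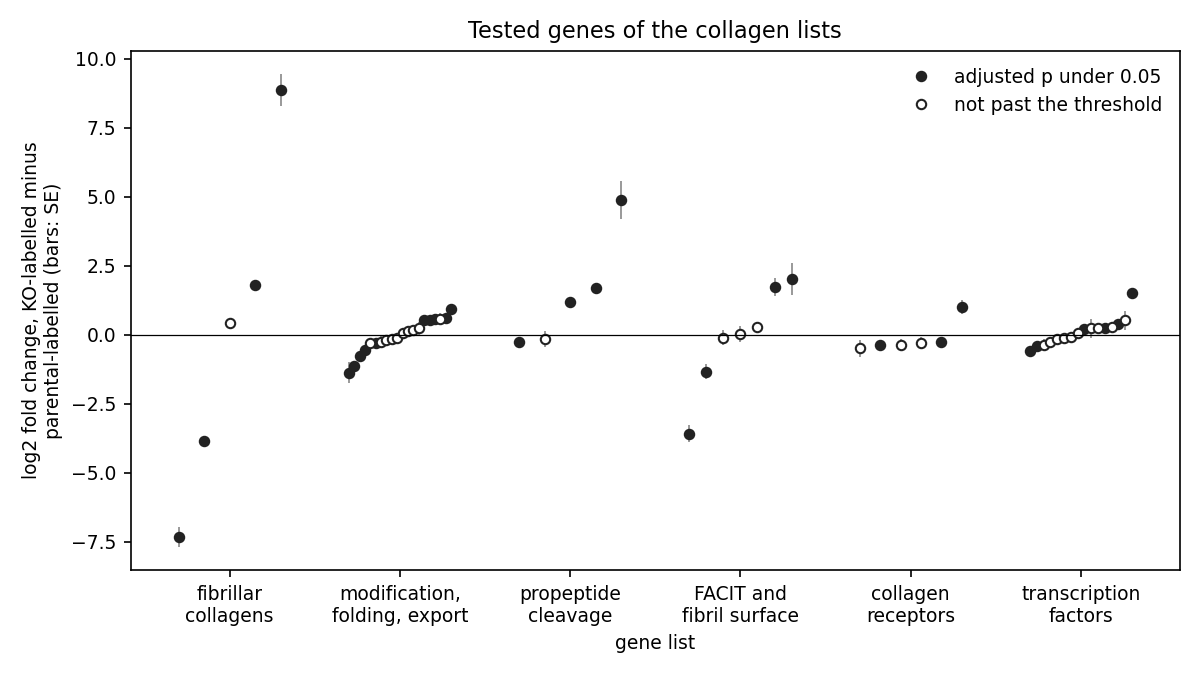
Points are log2 fold changes of the tested genes in each collagen list, ordered by size within a list, with bars for the SE, and filled points have an edgeR adjusted p under 0.05. The fibrillar collagens span -7.32 (COL3A1) to 8.85 (COL5A1), each of which reached the count filter through a single group. The propeptide list reaches 4.88 (ADAMTS14) and the fibril surface list -3.58 (COL12A1). The modification list starts at -1.37 (LEPREL1) and the transcription factor list ends at 1.51 (RUNX2).

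The genes next to the changed collagens were then compared, with gene order taken from RefSeq (GRCh38.p14), in which 14812 (85%) of the tested genes had a place. COL3A1 and COL5A2 are neighbours on chromosome 2, with no tested gene between them. On the side of COL3A1, the next tested gene, TFPI, an inhibitor of coagulation, fell from 73.8 ± 3.71 to 5.54 ± 4.51 CPM (SD, n = 3 each). Its log2 fold change was -3.73 (SE 0.43), or -4.65 without KO-labelled 3. FAM171B, beyond TFPI, was at -0.95 (SE 0.18). On the side of COL5A2, WDR75 was at -0.29 (SE 0.17) and not called, but was called lower at -0.54 without KO-labelled 3, and ASNSD1 was at -0.61 (SE 0.14). Calls for TFPI, FAM171B and ASNSD1 had edgeR adjusted p from 3.5e-04 to 0.00984. Without KO-labelled 3, FAM171B was at -1.21 and ASNSD1 at -0.81. TFPI, COL3A1 and COL5A2 were thus lower and consecutive among the tested genes with a place in this order, which leaves out other genes. Smaller falls were called for FAM171B and ASNSD1 but not for WDR75, where 19.8% of all tested genes were called lower.

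Near COL5A1 on chromosome 9 the called genes went in both directions, where 40.8% of all tested genes were called. RXRA, the nearest tested gene on one side, was at -0.09 (SE 0.08) and not called, and WDR5, beyond it, at 0.19 (SE 0.07). On the other side PPP1R26-AS1 and PPP1R26, an antisense pair that cannot be told apart where strand was not used in counting, were lower at -1.40 (SE 0.28) and -1.003 (SE 0.11), the first of which lost its call on the FPKM scale. Near COL1A1 on chromosome 17, PPP1R9B and MRPL27 were not called, at 0.08 (SE 0.07) and 0.05 (SE 0.09), XYLT2 was at 0.47 (SE 0.14), and PDK2, a kinase of the pyruvate dehydrogenase complex, rose from 0.812 ± 0.259 to 10.5 ± 0.707 CPM (SD, n = 3 each), or by 3.66 (SE 0.20) on the log2 scale. Those called among these genes had edgeR adjusted p from 1.1e-05 to 0.0454. Leaving out single libraries lost the WDR5 call in 5 of 6 cases and the XYLT2 call in 3 of 6.

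**Figure D4:**
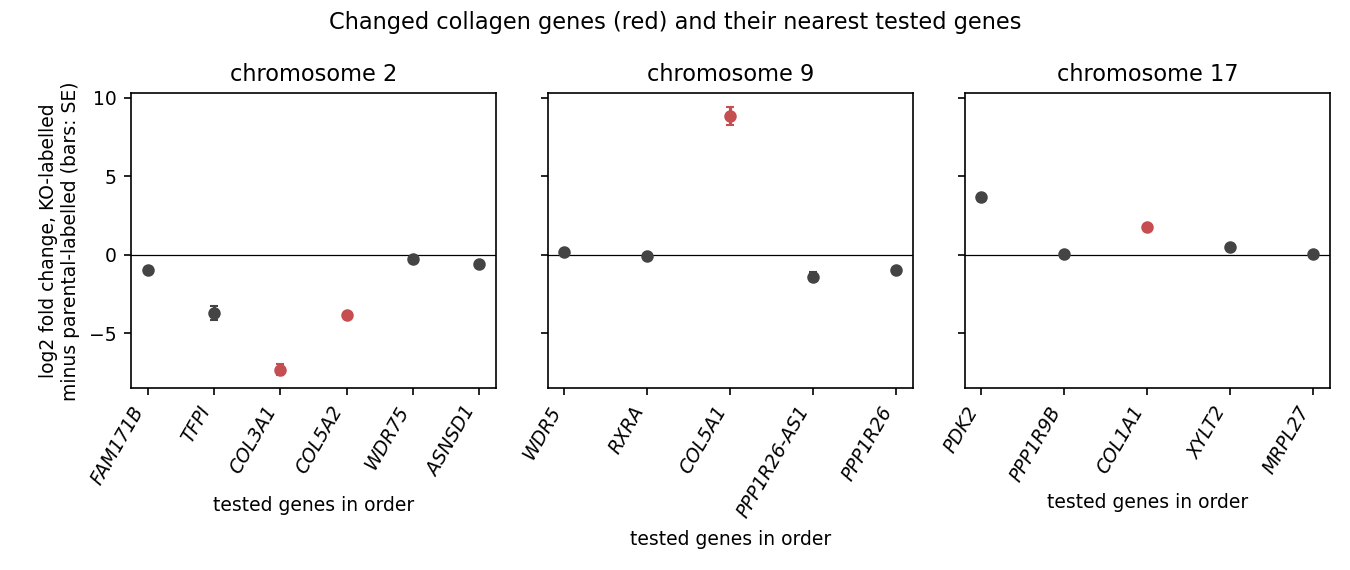
Points are log2 fold changes with bars for the SE, for the changed collagen genes (red) and the 2 nearest tested genes on each side (grey), in chromosome order. TFPI at -3.73 is the nearest tested gene with a place in the order on the COL3A1 side, and PDK2 at 3.66 is the larger of the changes near COL1A1.

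The tested genes most like COL5A1 and COL3A1 were found by the Euclidean distance between centred log2 CPM profiles over the 6 libraries. For COL5A1 these were FAM83E at a distance of 0.955, WNT5A, a secreted Wnt ligand, at 1.002 and TNFRSF10D at 1.12. WNT5A had 9, 8 and 3 counts in the parental-labelled libraries and 1009, 629 and 1210 in the KO-labelled ones. KO-labelled 2 was the lowest of its group and KO-labelled 3 the highest, as for COL5A1. The order differed in FAM83E, with 968, 914 and 800 counts in KO-labelled 1 to 3, and in TNFRSF10D, with 287, 357 and 396. All were picked for their likeness to COL5A1, so a shared order is no separate result. For COL3A1 they were the non-coding locus RP11-152P17.2 at 0.851, LBP, which binds lipopolysaccharide, at 0.910 and BRINP3 at 0.933. LBP had 98, 85 and 151 counts against 0, 2 and 0, and BRINP3 had 88, 90 and 105 against 0 in every KO-labelled library.

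Markers of fibroblasts, which make most fibrillar collagen in tissue, were read alongside. Of 14 listed markers 11 had a row of counts and 4 were tested, with 2 lower and 2 not called (40.8% of all tested genes called), and the list's summed level was 577 to 648 CPM against 325 to 441 CPM, lower throughout the KO-labelled group. Nearly all of that was FBLN1 and S100A4, which epithelial cells can also express. Of the defining markers PDGFRA had 0 to 3 parental and 4 to 9 KO counts, PDGFRB had 1 to 6 and 2 to 8, LUM had at most 1 count and DCN at most 0.000785 FPKM. FAP was present, with 92, 62 and 91 counts against 21, 21 and 111, KO-labelled 3 being the highest, and was not called at -0.61 (SE 0.55). The part of such cells in the collagen changes was not tested. All 8 epithelial markers were tested, of which EPCAM and KRT5 were higher, CDH1, KRT18 and KRT7 lower and 3 not called. Their summed level was 12710 to 13055 CPM against 11320 to 15919 CPM, the largest part of it EGFR, which had 8307 CPM in KO-labelled 3 and 4560 to 5268 CPM elsewhere.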

How the data were processed

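Poly(A) RNA of 6 MDA-MB-468 cultures was measured, 3 with the genotype label WT and 3 labelled GPR52 KO. The authors deposited raw counts per gene symbol and FPKM values, 1 column per library. Per the submitters' processing notes, the tools included Cufflinks 2.0.2, STAR 2.4.0f1 and SAMtools 0.1.19, and the build was hg19. The sources used here do not give the counting program, its strand setting or its filters, although the library kit is directional per the labels' protocols.

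Counts were filtered by filterByExpr (minimum count 10, total 15), scaled by TMM and tested with the edgeR 4.0.16 quasi-likelihood test in R 4.3.3, with no covariate, over 17420 genes, Benjamini-Hochberg adjusted, threshold 0.05. The SE is the log2 fold change divided by the square root of F. CPM used TMM library sizes. Ratios resting on 1 to 3 counts carry exact 95% binomial intervals, which, like the floor of 3 counts over a group, cover counting error only. The same edgeR code was first run on simulated counts with few changed genes and the same dispersion for every gene and group. That run checked the code only and does not bear on the scaling or the unequal spread of these data. Promoter sequences and gene order came from RefSeq tables of GRCh38.p14, a later build than hg19. By exon coordinates of GENCODE 29, only COL3A1 and COL5A3 of the members share exonic bases with another annotated gene (1 and 270 bases).

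The members and lists were chosen with earlier results of these data known. Genes were named by rule: the members, 2 tested neighbours on each side of a called member, up to 4 called genes per list with the smallest p, and the 3 genes nearest in pattern to the largest rise and fall. SERPINH1, FN1, THBS1, NFYA and NFYC were named after their values were seen. The marker lists were read in ranges. Alternatives were other scalings and filters, DESeq2 1.42.0, limma 3.58.1 (voom, and log2(FPKM + 1) or log2(FPKM + 0.1)), and leaving out each library.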

Additional observations from a re-analysis of the deposited data

How the results depend on the processing

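No paired analysis was possible because the titles of the edited populations carry no number that matches them to a parental well. The calls of COL1A1, COL3A1, COL5A1 and COL5A2 kept their direction and their side of the threshold in all 15 alternatives, with log2 fold changes from 1.41 to 1.88, -8.16 to -0.97, 1.27 to 11.46 and -3.90 to -2.47. The smallest values came from log2(FPKM + 1), whose pseudocount compresses low levels. For COL3A1 and COL5A1, which reached the count filter through a single group, the direction was all but fixed wherever such a filter was used. COL11A2 passed the threshold with library totals at 0.470 and when KO-labelled 1 or 3 was left out (0.297 to 0.516 over the leave-outs). The members called higher numbered 3 under those alternatives, and 3 with no filter on low counts, where COL27A1 was added. Over all genes 3661 were called higher and 3444 lower, with 2482 to 4730 and 2390 to 4637 when a library was left out. Limma on log2(FPKM + 1) with no filter called 1988 lower genes and 6 of the modification list. On the FPKM scale the fibril surface list had 1 called gene under each of the 3 settings, and the receptor list had 1, 1 and 0. With a library left out, the receptor list had 1 to 3 called genes and the transcription factor list 3 to 9. Of 567 alternatives over 38 further genes 486 kept the call, 80 lost it and 1 gained it. FPKM settings gave 39 of the losses and leaving out a parental-labelled library 28. The cause was not tested. Values under 3 counts over a group could not be resolved at this depth.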

Other observations

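The catalytic subunits of collagen prolyl 4-hydroxylase, looked at after their values were seen, did not move together. P4HA3 fell from 3.10 ± 0.309 to 1.42 ± 0.0720 CPM (SD, n = 3 each), by edgeR's test a log2 change of -1.12 (SE 0.17) at adjusted p = 0.00128, and kept its call in all 15 alternatives. P4HA2 rose from 17 ± 0.491 to 24.8 ± 4.41 CPM (SD, n = 3 each), a log2 change of 0.54 (SE 0.13) at edgeR adjusted p = 0.0130, which was lost without parental-labelled 2 or 3 and with log2(FPKM + 1) and no filter. P4HA1 was at 14.9, 14.0 and 13.4 CPM in the parental-labelled libraries and 14.96, 24.1 and 23.5 CPM in the KO-labelled ones, so KO-labelled 1 lay beside the parental values. Its log2 fold change of 0.56 (SE 0.18) had an edgeR adjusted p of 0.0356, and the call was lost without any 1 of the parental-labelled libraries or KO-labelled 2, with limma voom and with log2(FPKM + 1), filtered or not. The prolyl 3-hydroxylase gene LEPREL1 was at 7.09, 6.24 and 7.23 CPM against 2.03, 1.24 and 4.68 CPM, a log2 change of -1.37 (SE 0.37) at edgeR adjusted p = 0.0195, lost without parental-labelled 1 or 3 or KO-labelled 1 (adjusted p 0.0607 to 0.0695) and under all 3 FPKM settings (0.0625 to 0.197). It was -2.08 without KO-labelled 3.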
